A study of Homo sapiens with 8 samples.

Results

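MALAT1, NEAT1, NORAD, TUG1 and OIP5-AS1 are long noncoding RNAs that many human cell types express, and they were followed here through RNA of HEK293T, an established human line derived from embryonic kidney. They were chosen by name: every row of the deposited transcript table whose RefSeq identifier maps to these genes was taken, and the rows of a gene were summed. That gave 5 of 25884 named genes, carried by 8 of 53216 transcripts. The values are FPKM, sequenced fragments scaled for transcript length and library size. The table covered 8 libraries: 2 of wild-type (WT) RNA depleted of ribosomal RNA with RiboMinus, 3 of WT RNA enriched by NAD-Capture, and 3 of NAD-Capture RNA from cells labelled DXO-KO, a knockout of DXO. All groups were untreated HEK293T cells, and whether the knockout cells were 1 clone or several is not given in the sources used here. NAD-Capture marks RNA carrying NAD at its 5′ end through an ADP-ribosylcyclase reaction and a click reaction with biotin, and pulls it out on streptavidin beads. Reactions without the cyclase are described as the background control and were not analysed here, so captured NAD-RNA and RNA held by the beads for other reasons cannot be told apart. Library kits differed as well (TruSeq for RiboMinus RNA, SMARTer low-input for captured RNA), so the effects of capture and kit cannot be told apart. Nor can fewer cells expressing an RNA and less RNA per cell, since each library is a bulk culture.

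Most human RNA made by RNA polymerase II starts with a methylguanosine cap. An NAD cap is a different 5′ end, in which NAD takes the place of ATP as the first nucleotide, so that such an RNA starts with adenosine. DXO is an enzyme that removes NAD caps. MALAT1 stays in the nucleus, in nuclear speckles, and its 3′ end is cut by RNase P and closed by a triple helix in place of a poly(A) tail. NEAT1 is the scaffold of paraspeckles, nuclear bodies that form around its long transcript, and a short transcript covers the 5′ part of the same sequence. NORAD and OIP5-AS1 (also called cyrano) act mainly in the cytoplasm, NORAD as a binding platform for RNA-binding proteins and OIP5-AS1 through the microRNA miR-7 and the RNA-binding protein ELAVL1. TUG1 is found in both compartments.

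Because NAD can only begin an RNA at adenosine, the annotated starts are shown here with the first transcribed base in capitals, preceded by 20 bases of upstream DNA. The sequences are RefSeq's, build GRCh38.p14, from the gene strand, 5′ to 3′. RefSeq starts for 4 of the 5 genes were in the table used, with 2 starts for MALAT1. NEAT1 was not among them.
MALAT1 start 1 (chr11:65497718-65497767, plus strand): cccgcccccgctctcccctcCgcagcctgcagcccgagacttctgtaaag
MALAT1 start 2 (chr11:65499025-65499074, plus strand): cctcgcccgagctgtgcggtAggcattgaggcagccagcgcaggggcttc
NORAD (chr20:36050931-36050980, minus strand): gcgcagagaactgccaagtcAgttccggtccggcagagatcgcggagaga
TUG1 (chr22:30969245-30969294, plus strand): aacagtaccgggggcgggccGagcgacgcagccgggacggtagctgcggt
OIP5-AS1 (chr15:41283970-41284019, plus strand): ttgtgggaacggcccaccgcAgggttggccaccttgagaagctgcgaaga
The annotated base was A at 3 of these 5 starts (MALAT1 start 2, NORAD and OIP5-AS1), C at MALAT1 start 1 and G at TUG1. Of 35116 RefSeq starts, 44.4% had A at this place. An annotated start need not be the base at which transcription begins in these cells, and the deposited values do not resolve 5′ ends.

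The transcripts differ in build. In GENCODE release 29 the paired transcripts of MALAT1 (8708 nt), NORAD (5339 nt) and long NEAT1 (22743 nt) have 1 exon each, while OIP5-AS1 (8829 nt) has 4 exons and the TUG1 transcripts have 2 or 3. GC content ran from 38.4% in OIP5-AS1 to 48.4% in short NEAT1 (3524 nt).

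Depth differed widely between libraries. Read from the spacing of low values, it was equivalent to 8760461 and 10679989 fragments in RiboMinus and to 79995 to 807443 in NAD-Capture, so the precision of NAD-Capture values varied from library to library. Replicate 1 labelled DXO-KO was the deepest of the NAD-Capture libraries, and its FPKM summed over genes was 1269289 against 8554900 and 6931994 in replicates 2 and 3. Of markers of HEK293 cells, NEFL and NEFM were at 3.89 FPKM or more in every library. The third, PAX2, was nearly absent from RiboMinus, at 0.0831 and 0.204 FPKM. It was at 4.77 to 7.17 FPKM in WT NAD-Capture and at 1.48, 0 and 3.65 FPKM in DXO-KO-labelled replicates 1 to 3. Of 7 markers of hepatocytes, leukocytes, erythroid cells and endothelium, APOA2, PTPRC and HBB were listed at 0 throughout and the highest value of the others was 5.75 FPKM (PECAM1). DXO RNA itself was 127.6, 61.6 and 71.7 FPKM in DXO-KO-labelled replicates 1 to 3 and 17.2 to 33.2 FPKM in WT NAD-Capture. It was thus higher where a knockout is labelled, without passing the test (limma log2 fold change 1.69, SE 0.387, adjusted p 0.115). These values rest on 147, 12 and 8 fragments with the label and on 4 to 10 in WT. The 95% Poisson intervals of labelled replicates 2 and 3 (from 32.1 and 31.4 FPKM) met those of WT (up to 62.8 FPKM). A knockout allele need not lower its RNA, but why DXO RNA was higher with the label was not tested. The labels are used as deposited.

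In RiboMinus RNA, the view of the cells without capture, the 5 RNAs were not all abundant. MALAT1 was at 173 and 190 FPKM in replicates 1 and 2 and ranked 346th and 305th among the genes. NORAD was at 56.0 and 59.3 FPKM, above 92.4% and 92.9% of the genes detected. TUG1 was at 35.6 and 34.6 FPKM and OIP5-AS1 at 16.1 and 18.3 FPKM. NEAT1 was the lowest, at 10.1 and 13.1 FPKM, and only 62.8% and 68.1% of detected genes lay below it. The order MALAT1, NORAD, TUG1, OIP5-AS1, NEAT1 held in both libraries, and no neighbours in it overlapped.

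**Figure D1:**
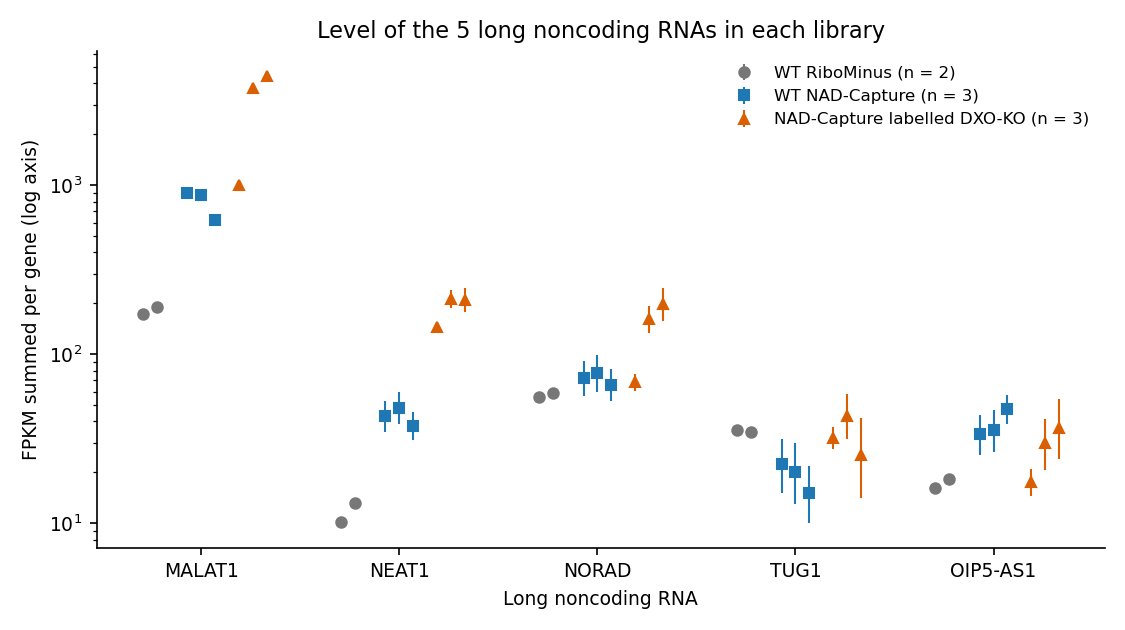
FPKM summed per gene (log axis) of the 5 RNAs in each of the 8 libraries; each point is a library, replicates run from left to right, and bars are 95% Poisson intervals, which cover counting error only. The bars pool the fragments of a gene's transcripts and are too narrow for NEAT1 in NAD-Capture. MALAT1 is the highest in every library, and NEAT1 moves from 10.1 and 13.1 FPKM in RiboMinus to between 144 and 213 FPKM in the libraries labelled DXO-KO.

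WT NAD-Capture was compared with WT RiboMinus to see which RNAs the capture preparation holds at a higher level. MALAT1, NEAT1 and OIP5-AS1 rose, and NORAD and TUG1 did not pass the test. Limma tested 16941 genes and called 24.8% of them at an adjusted p below 0.05. Genes called higher after capture were 16.8% of all tested and those called lower were 7.99%, and 3 of the 5 RNAs were among the former. The median log2 fold change of all genes tested was 0.21. In all 5 RNAs the groups did not overlap, 4 of them higher and TUG1 lower, against 55.7% of all genes without overlap (28.8% higher and 26.9% lower).

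Of the nuclear RNAs, MALAT1 was at 894, 881 and 626 FPKM in the captured WT replicates 1 to 3 (mean 800.2 ± 151 SD, n = 3) and at 181.7 ± 12.04 FPKM in RiboMinus (SD, n = 2). Every captured library lay above both RiboMinus libraries, and the NAD-Capture values rest on 1243 to 1458 fragments. Its log2 fold change was 2.12 (SE 0.230, limma adjusted p 0.00441), a 4.33-fold difference. NEAT1 was at 42.9, 48.4 and 37.9 FPKM in NAD-Capture (mean 43.0 ± 5.26 SD, n = 3) and at 11.6 ± 2.11 FPKM in RiboMinus (SD, n = 2). Its log2 fold change was 1.81 (SE 0.225, limma adjusted p 0.00612), a 3.50-fold difference. That size depends on how reads were assigned to the 2 NEAT1 transcripts. The short one was listed at 0 in RiboMinus and rests on 16 to 17 fragments in each WT NAD-Capture library. The long one alone differed by 0.59 (SE 0.205, limma adjusted p 0.131) and did not pass.

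The cytoplasmic RNAs differed from each other. OIP5-AS1 was at 33.5, 35.4 and 47.1 FPKM in NAD-Capture (mean 38.7 ± 7.38 SD, n = 3) and at 17.2 ± 1.57 FPKM in RiboMinus (SD, n = 2), a log2 fold change of 1.11 (SE 0.234, limma adjusted p 0.0248). NORAD was at 72.6, 77.5 and 65.9 FPKM in NAD-Capture (mean 72.0 ± 5.81 SD, n = 3) and at 57.7 ± 2.34 FPKM in RiboMinus (SD, n = 2). Its log2 fold change of 0.31 (SE 0.174, limma adjusted p 0.256) did not pass and lay close to the median gene, with 52.4% of genes below it. With small RNAs left out and the rest rescaled to a common sum per library, the sign of NORAD's value changed to −0.17. TUG1, found in both compartments, was at 22.3, 20.1 and 15.1 FPKM in NAD-Capture (mean 19.2 ± 3.70 SD, n = 3) and at 35.1 ± 0.660 FPKM in RiboMinus (SD, n = 2). Its log2 fold change of −0.86 (SE 0.239, limma adjusted p 0.0537) missed the threshold, and only 24 to 31 fragments stand behind each NAD-Capture value. It passed without WT NAD-Capture replicate 1 (−0.97, limma adjusted p 0.0406) and without replicate 3 (−0.70, limma adjusted p 0.0392).

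These calls need both RiboMinus libraries. Leaving out RiboMinus replicate 1 or 2 left adjusted p-values of 0.0919 and 0.0752 for MALAT1, 0.106 and 0.0763 for NEAT1, and 0.242 and 0.190 for OIP5-AS1 in limma, with log2 fold changes of 2.05 and 2.18, 1.64 and 1.98, and 1.02 and 1.20; the lone RiboMinus library is then assumed to vary like the others. In a common fit of all 8 libraries NEAT1 passed (adjusted p 0.00552) and MALAT1 and OIP5-AS1 did not (0.0524 and 0.0668), and OIP5-AS1 also missed with small RNAs left out (log2 fold change 0.66, limma adjusted p 0.168). TUG1 passed in that last setting (−1.36, limma adjusted p 0.00826). OIP5-AS1 overlaps OIP5 on the other strand, and no source used here states that strand was counted. Reads from the stretch where the pair overlaps therefore cannot be told apart. OIP5 was at 17.2 ± 0.505 FPKM in RiboMinus (SD, n = 2) and 15.0 ± 3.77 FPKM in WT NAD-Capture (SD, n = 3).

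**Figure D2:**
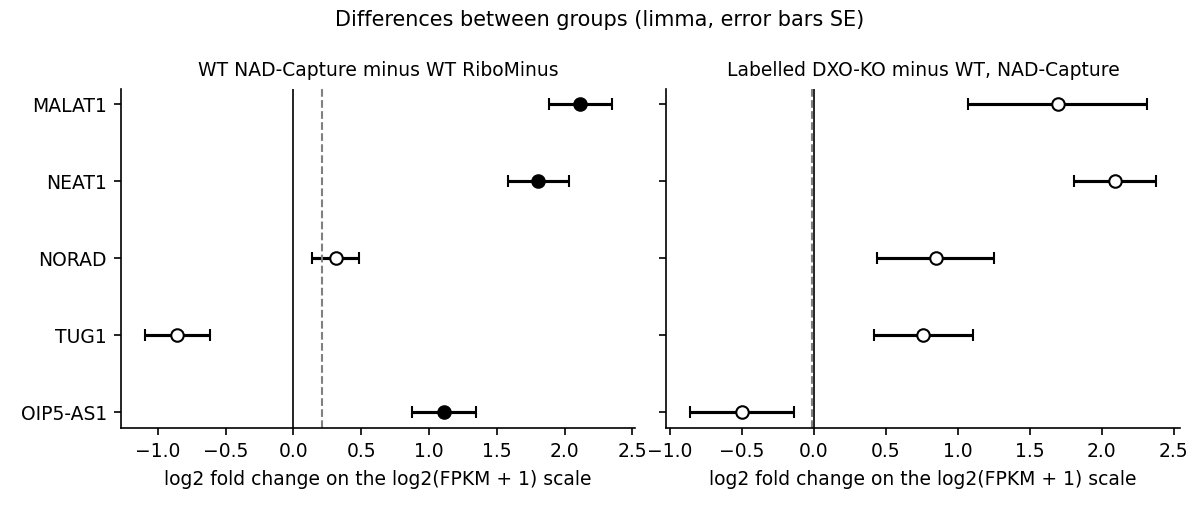
log2 fold change (x axis, on the log2(FPKM + 1) scale) of the 5 RNAs, with standard errors from limma; filled points have an adjusted p under 0.05 and the dashed line is the median of all genes tested. MALAT1, NEAT1 and OIP5-AS1 are filled on the left (2.12, 1.81 and 1.11), and no point is filled on the right, where NEAT1 lies farthest from 0 at 2.09.

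The libraries labelled DXO-KO were compared with WT NAD-Capture to ask which captured RNAs change when the decapping enzyme is absent; DXO RNA was higher in the libraries labelled DXO-KO. None of the 5 RNAs passed the test, as for nearly all genes: of 17681 genes limma called 0.0339% at the same threshold, 0.017% in each direction (3 genes higher and 3 lower), while 16.7% had an unadjusted p below 0.05. MALAT1, NEAT1 and TUG1 did not overlap between the groups, each higher in the libraries labelled DXO-KO, against 23.3% of all genes without overlap (11.8% higher and 11.5% lower). NORAD and OIP5-AS1 overlapped.

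NEAT1 stood closest to the threshold. It was at 144, 213 and 210 FPKM in DXO-KO-labelled replicates 1 to 3 (mean 189 ± 38.8 SD, n = 3), and all 3 lay above the 37.9 to 48.4 FPKM of WT NAD-Capture. The 95% Poisson intervals did not meet either, since the lowest bound was 136 FPKM in the libraries labelled DXO-KO and the highest was 59.7 FPKM in WT. These intervals pool the fragments of both NEAT1 transcripts. In WT NAD-Capture the short one held 53.5% to 60.9% of the FPKM on 16 to 17 fragments, so they understate counting error. The log2 fold change of NEAT1 was 2.09 (SE 0.286), 4.26-fold, with an unadjusted p of 6.20e-05, the 16th smallest of all genes, and a limma adjusted p of 0.0667. It passed after quantile normalization (log2 fold change 1.76, limma adjusted p 0.0356), with small RNAs left out (2.07, adjusted p 0.0430) and in the common fit of 8 libraries (2.09, adjusted p 0.0168). It did not pass in the other 12 alternatives, where limma gave adjusted p-values of 0.235, 0.243 and 0.272 without WT NAD-Capture replicate 1, 2 and 3, and 0.142 without DXO-KO-labelled replicate 2.

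MALAT1 split the libraries labelled DXO-KO. Replicates 2 and 3 were at 3753 and 4430 FPKM, while replicate 1 was at 1005 FPKM, near the highest WT library (894 FPKM). The 3 libraries had a mean of 3063 ± 1814 FPKM (SD, n = 3) and a log2 fold change over WT of 1.69 (SE 0.622, limma adjusted p 0.239). Counting error is small here, with 6907, 4445 and 3015 fragments in replicates 1 to 3, and their Poisson intervals are narrow beside the spread of the 3 values. NORAD divided the same way, at 68.4 FPKM in replicate 1, inside the WT range, and at 162 and 198 FPKM in replicates 2 and 3 (log2 fold change 0.85, SE 0.407, limma adjusted p 0.330). Replicate 1 also had the greatest depth and the lowest summed FPKM of its group. With small RNAs left out and the rest rescaled, MALAT1 had a log2 fold change of 1.66 (SE 0.315, limma adjusted p 0.12). NORAD then had 0.81 (SE 0.26, limma adjusted p 0.253), so both standard errors were smaller and neither RNA passed. After quantile normalization the standard errors were 0.302 and 0.292. Beyond such rescaling, the part of depth and summed FPKM in the result was not tested. Without replicate 1 the log2 fold changes were 2.37 for MALAT1 (limma adjusted p 0.0842) and 1.30 for NORAD (0.107).

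TUG1 was at 32.1, 43.3 and 25.4 FPKM in DXO-KO-labelled replicates 1 to 3 (mean 33.6 ± 9.04 SD, n = 3), all above the WT NAD-Capture libraries, and this range takes in the RiboMinus values of 34.6 and 35.6 FPKM. Its log2 fold change was 0.76 (SE 0.343, limma adjusted p 0.308), and the lowest of these values rests on 15 fragments. OIP5-AS1 was at 17.5, 29.7 and 36.7 FPKM (mean 28.0 ± 9.75 SD, n = 3) and was the only one of the 5 with a mean below WT NAD-Capture (log2 fold change −0.50, SE 0.361, limma adjusted p 0.497). Its value in replicate 1 labelled DXO-KO, the library with 122 fragments on this gene, lay between those of the RiboMinus libraries.

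The order of the RNAs differed with the preparation. In WT NAD-Capture it was MALAT1, NORAD, NEAT1, OIP5-AS1 and TUG1 by mean FPKM, and NEAT1 and OIP5-AS1 overlapped. With the DXO-KO label the order was MALAT1, NEAT1, NORAD, TUG1 and OIP5-AS1. There the ranges of NEAT1 and NORAD overlapped, although NEAT1 was the higher in 3 of 3 libraries, and those of TUG1 and OIP5-AS1 overlapped too. These places of NEAT1 are by FPKM summed over its transcripts. Long NEAT1 alone was at 44.8, 53.2 and 66.1 FPKM with the DXO-KO label, below NORAD in each library. In WT NAD-Capture it was at 17.1 to 18.9 FPKM, below OIP5-AS1 in each library. MALAT1 made up 59.5% and 60.3% of the 5 RNAs' FPKM in RiboMinus, 79.0% to 83.9% in WT NAD-Capture and 79.3% to 90.4% in the libraries labelled DXO-KO.

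The NEAT1 transcripts changed in proportion. The long transcript (NR_131012) carried all NEAT1 FPKM in RiboMinus, where the short one (NR_028272) was listed at 0 in both libraries. In WT NAD-Capture the short transcript was at 25.8, 29.5 and 20.2 FPKM and the long one at 17.1, 18.9 and 17.6 FPKM. In DXO-KO-labelled replicates 1 to 3 the short one was at 99.3, 160 and 144 FPKM and the long one at 44.8, 53.2 and 66.1 FPKM. Both were therefore higher in every library labelled DXO-KO than in every WT NAD-Capture library. Tested transcript by transcript, the log2 fold change was 2.36 for the short one (SE 0.368, limma adjusted p 0.119) and 1.55 for the long one (SE 0.367, limma adjusted p 0.269), and neither passed.

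Of NEAT1 FPKM the short transcript held 60.2%, 60.9% and 53.5% in captured WT RNA, and it held 68.9%, 75.0% and 68.5% in DXO-KO-labelled replicates 1 to 3. The groups did not overlap and their means differed by 12.6 percentage points (p = 0.1 by a two-sided exact permutation test; 3 against 3 libraries can give no smaller p). Only 16 to 17 fragments were assigned to the short transcript in each WT library. Since it lies within the long one, its FPKM is an assignment by the authors' software of reads that both transcripts could give, and the reads themselves were not analysed here.

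Against RiboMinus, the long NEAT1 transcript alone differed less than the gene, by a log2 fold change of 0.59 in WT NAD-Capture (SE 0.205, limma adjusted p 0.131). The short transcript passed by itself (limma adjusted p 0.00231); no fold is given against values listed at 0.

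TUG1, which RefSeq's current table classes as protein coding, had its FPKM assigned unevenly. In RiboMinus, NR_110493 was at 16.0 and 15.8 FPKM, NR_002323 at 15.2 and 11.3 FPKM and NR_110492 at 4.41 and 7.47 FPKM. In WT NAD-Capture NR_110493 held 99.3% to 100.0% of the gene's FPKM, and NR_110492 was listed at 0. It was listed at 0 in replicates 2 and 3 labelled DXO-KO too, and at 18.4 FPKM in replicate 1. NR_110493 alone differed by 0.23 between WT NAD-Capture and RiboMinus (SE 0.237, limma adjusted p 0.571), the opposite sign to the gene. NR_110493 and NR_002323 pair with the same GENCODE transcript and, at 15 to 44 fragments on the whole gene in all NAD-Capture libraries but 1, the split between them is uncertain; the sum is the safer value.

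**Figure D3:**
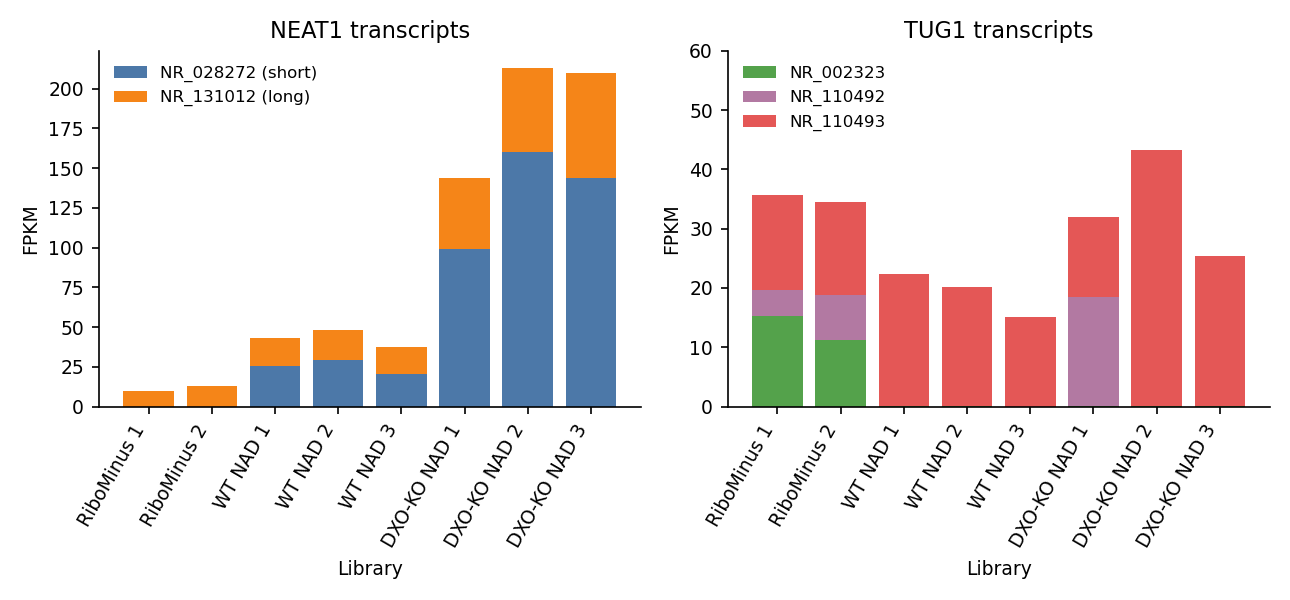
FPKM of each RefSeq transcript of NEAT1 (left) and TUG1 (right), stacked, in each of the 8 libraries. Short NEAT1 is listed at 0 in RiboMinus and is 53.5% to 75.0% of the gene in NAD-Capture, while TUG1 is spread over 3 transcripts in RiboMinus and lies almost wholly on NR_110493 in 5 of the 6 NAD-Capture libraries.

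Nuclear members were set against cytoplasmic members within each library, as MALAT1 plus NEAT1 over NORAD plus OIP5-AS1, with TUG1 in neither; a ratio within a library does not depend on how that library was scaled. It was 2.54 and 2.62 in RiboMinus. In the captured WT replicates 1 to 3 it was 8.83, 8.23 and 5.87, and it was 13.4, 20.7 and 19.8 in DXO-KO-labelled replicates 1 to 3. The 3 groups did not overlap. On the log2 scale the means were 1.37 ± 0.030 (SD, n = 2), 2.91 ± 0.315 (SD, n = 3) and 4.14 ± 0.347 (SD, n = 3). The differences, given as a description, were 1.54 from RiboMinus to WT NAD-Capture and 1.23 from there to the libraries labelled DXO-KO.

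MALAT1 dominates that ratio, so pairs were read too. MALAT1 over NORAD was 3.09 and 3.21 in RiboMinus, 9.49 to 12.3 in WT NAD-Capture and 14.7 to 23.2 in the libraries labelled DXO-KO. NEAT1 over NORAD was 0.181 and 0.221 in RiboMinus, 0.574 to 0.625 in WT NAD-Capture and 1.06 to 2.11 in the libraries labelled DXO-KO. Each nuclear RNA therefore stood higher relative to NORAD in every captured library than in RiboMinus. For long NEAT1 alone this held too, but the gap between WT NAD-Capture and RiboMinus was much smaller. By FPKM summed per gene, MALAT1 over NEAT1 did not separate the groups, at 14.5 and 17.1, 16.5 to 20.8, and 6.98 to 21.1. Against long NEAT1 alone, which carried all NEAT1 FPKM in RiboMinus, MALAT1 stood higher in every captured library than in RiboMinus. MALAT1 over OIP5-AS1 was 10.4 and 10.8 in RiboMinus, 13.3 to 26.7 in WT NAD-Capture and 57.5 to 126 with the DXO-KO label. NEAT1 over OIP5-AS1 was 0.630 and 0.716, 0.803 to 1.37, and 5.70 to 8.24 in the same order. By FPKM summed per gene, both nuclear RNAs also stood higher relative to OIP5-AS1 in every captured library than in RiboMinus, although OIP5-AS1 itself rose. For NEAT1 in WT NAD-Capture this rests on the short transcript, with 16 to 17 fragments per library and listed at 0 in RiboMinus. Long NEAT1 alone was at 17.1, 18.9 and 17.6 FPKM there, against 33.5, 35.4 and 47.1 FPKM for OIP5-AS1. That is lower relative to OIP5-AS1 than in RiboMinus (10.1 and 13.1 against 16.1 and 18.3 FPKM).

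**Figure D4:**
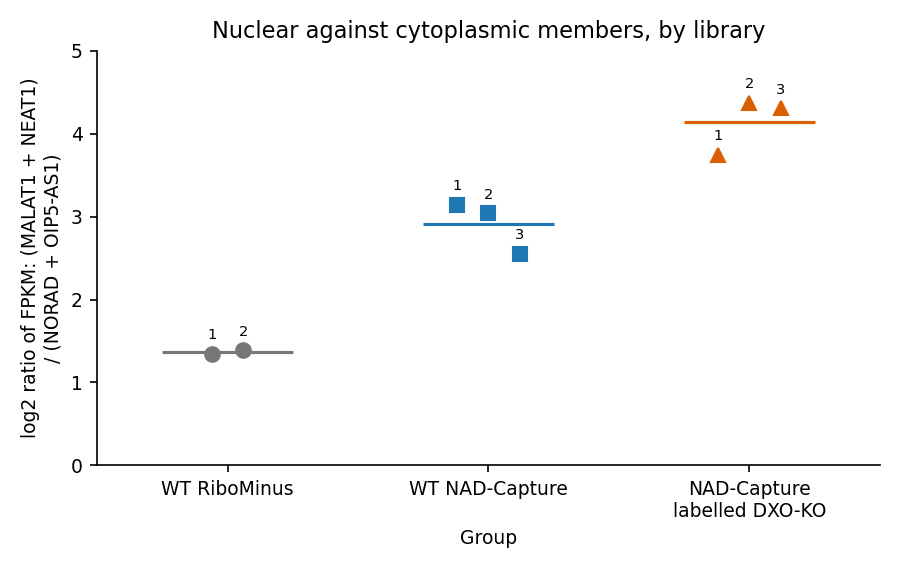
log2 ratio of nuclear (MALAT1, NEAT1) to cytoplasmic (NORAD, OIP5-AS1) FPKM in each library, with replicate numbers beside the points and lines at the group means. The groups lie apart, at 1.35 to 1.39 in RiboMinus, 2.55 to 3.14 in WT NAD-Capture and 3.74 to 4.38 in the libraries labelled DXO-KO.

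Across the 8 libraries, on log2(FPKM + 1), MALAT1 followed NEAT1 (Pearson r = 0.95) and NORAD (0.91), while TUG1 ran opposite to OIP5-AS1 (−0.74) and had no relation with MALAT1 (−0.01). These values describe 8 libraries in 3 groups that differ in kit and depth, and carry no test. Among 6096 genes above 0 in every library, those most like MALAT1 were CUL4B, GAS5 and CBX5 (r = 0.989, 0.988 and 0.986), GAS5 being a long noncoding RNA that hosts snoRNAs. NEAT1 was closest to JUN, an AP-1 transcription factor, PDK1 and EEF1A2 (0.989, 0.985 and 0.982). NORAD was closest to SSR1, ZNF430 and WDTC1 (0.992, 0.992 and 0.988). TUG1 was closest to AKAP12, FBXO9 and TAF10 (0.983, 0.980 and 0.974), and OIP5-AS1 to TMEM120B, SLC2A6 and PEX11G (0.983, 0.959 and 0.958).

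A list of 34 other long noncoding RNAs was read alongside. Of 31 tested between WT NAD-Capture and RiboMinus, 8 rose and 2 fell, against 16.8% of all genes called higher and 7.99% lower. The list's median log2 fold change was 0.51, against 0.21 for all genes. H19, an imprinted RNA, rose from 0.355 ± 0.375 FPKM in RiboMinus (SD, n = 2) to 57.7 ± 21.2 FPKM in WT NAD-Capture (SD, n = 3; limma log2 fold change 5.41, SE 0.380, adjusted p 0.00224). MIRLET7BHG, a microRNA host, rose from 0.735 ± 0.123 to 32.8 ± 5.87 FPKM (4.27, SE 0.272, limma adjusted p 0.00213). MEG3, also imprinted, was listed at 0 in RiboMinus, against 11.8, 28.1 and 23.1 FPKM after capture (limma adjusted p 0.00363). TP53TG1 was called lower, at 5.80 and 9.10 FPKM in RiboMinus and listed at 0 in WT NAD-Capture (limma adjusted p 0.0134). At 1 kb, 1 fragment was worth 5.2, 6.0 and 4.0 FPKM in WT NAD-Capture replicates 1 to 3. The RiboMinus level is near that, so the listed 0 cannot be told apart from low depth. In DXO-KO-labelled replicates 1 to 3 TP53TG1 was at 26.8, 26.2 and 0 FPKM. Of 32 tested between the NAD-Capture groups, 0 passed in limma, with 17 above and 15 below 0 and a median of 0.09.

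The mRNAs of proteins that work with these RNAs were read in the same comparison, where 16.8% of all genes were called higher and 7.99% lower and the median gene was at 0.21. Of 20 paraspeckle proteins, 2 rose, 7 fell and the others did not pass (median −0.64). PSPC1, a core paraspeckle protein, fell by 1.78 on the log2 scale (SE 0.307, limma adjusted p 0.0146) and HNRNPF by 1.56 (SE 0.162, adjusted p 0.00388), while TAF15 rose by 1.34 (SE 0.294, adjusted p 0.0281) and HNRNPH3 by 1.22 (SE 0.230, adjusted p 0.0184). Of 13 nuclear speckle proteins, the neighbours of MALAT1, 0 rose, 4 fell in limma and the others did not pass (median −0.50): SRSF7, SRSF2, SRSF3 and U2AF2, with log2 fold changes of −1.71, −1.61, −1.42 and −1.12.

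Of 3 genes of the MALAT1 3′ end, 1 fell in WT NAD-Capture against RiboMinus, and the other 2 lay above 0 without passing. The median of the 3 was 0.30, against 0.21 for all genes. The gene that fell was ELAC2, the RNase Z that trims the small RNA cut from MALAT1. Its log2 fold change was −2.25 (SE 0.607, limma adjusted p 0.0495). That call was lost in 8 of its alternatives, among them a pseudocount of 0.1 (limma adjusted p 0.0618), quantile normalization (0.112) and leaving out WT NAD-Capture replicate 1 (0.107). Every call named here from these lists, the long noncoding RNAs included, was lost when RiboMinus replicate 1 or 2 was left out, with limma adjusted p-values of 0.0522 to 0.325 and no change of sign. TAF15 and HNRNPH3 also missed with small RNAs left out (0.0691 and 0.0894), HNRNPH3 and TP53TG1 in the common fit (0.102 and 0.156). Between the NAD-Capture groups 0 genes of these lists passed in limma; the medians were 0.23 for paraspeckle proteins, 0.18 for speckle proteins and −0.26 for the genes of the MALAT1 3′ end, against −0.01 for all genes.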

How the data were processed

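The authors deposited 1 table of FPKM per RefSeq transcript and library. The submitters' processing notes name TopHat2 2.1.1, Bowtie2 2.2.8.0, Cuffdiff and the build hg19, with no role or order; the annotation version and any scaling between libraries are not given in the sources used here. Of the transcripts, 93.0% were named by RefSeq (GRCh38.p14) or, failing that, GENCODE 29, and summed per symbol; no coordinates were moved between builds.

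Gene sums were tested with limma 3.58.1 (R 4.3.3; lmFit, eBayes with trend) on log2(FPKM + 1), two-sided, after leaving out genes whose mean FPKM over the compared libraries was under 1, with Benjamini-Hochberg adjustment over all of them and a threshold of 0.05. Fold changes are on that scale, which understates low genes. The fit was tested on simulated data. Exact permutation tests used scipy 1.17.1.

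Depth was read from 7285 sole transcripts of 1500 to 6000 nt: FPKM times length minus 200 nt gathered at multiples of the value of 1 fragment, and 71.2% to 73.9% of low values lay within 4% of a multiple. Fragments are such equivalents, and 95% Poisson intervals cover counting error only. They pool the fragments of a gene's transcripts, which understates the error where transcripts of unlike length share a gene, as in NEAT1. FPKM are not counts and no count model was fitted.

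Named genes are the 5 RNAs, DXO, the 3 genes most like each RNA (mean FPKM of at least 10), and from each list up to 4 that passed, by size; some are not reported here. The members and lists were chosen with earlier results of these data known. Labels do not say that replicates were separate cultures, so p-values measure the spread between these libraries, which may be technical. Alternatives changed the pseudocount, filter, scaling, summing, libraries fitted, replicate block and replicates kept.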

Additional observations from a re-analysis of the deposited data

How the results depend on the processing

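Between the NAD-Capture groups limma called 6 genes; centring gave 10, quantile normalization 27, the common fit of 8 libraries 429, and leaving out a replicate 4 to 15 (12 and 15 without DXO-KO-labelled replicate 2 and 3). Between WT NAD-Capture and RiboMinus it called 4194; a mean FPKM of at least 10 gave 2377, quantile normalization 2431, the common fit 2638, single transcripts 6363, and leaving out a replicate 14 to 5348 (18 and 14 without RiboMinus replicate 1 and 2). Of these calls 67.7% were higher; the share was 47.5% at a mean of at least 10, 47.7% without small RNAs and 49.0% for single transcripts. Between the NAD-Capture groups, 3 of 6 calls were higher, against 3 of 10 after centring, 8 of 27 after quantile normalization and 2 of 8 without small RNAs. The median gene moved from 0.21 to −0.15 without small RNAs and −0.20 after quantile normalization, and between the NAD-Capture groups from −0.01 to −0.21 after centring.

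The replicate number joins the libraries by name only: same-numbered NAD-Capture libraries correlated at −0.014, −0.002 and −0.033 in their deviations. With the replicate block limma called 4 genes between the NAD-Capture groups and 0 (5734 at an unadjusted p under 0.05) between WT NAD-Capture and RiboMinus, where MALAT1 and NEAT1 then had adjusted p-values of 0.0970.

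MALAT1 and NEAT1 kept a positive sign under all 14 alternatives against RiboMinus and all 15 between the NAD-Capture groups; their ranges were 1.51 to 2.28 and 0.59 to 1.98 in the former, 1.25 to 2.37 and 1.76 to 2.36 in the latter. Signs turned for NORAD (−0.17 without small RNAs), TUG1 (0.23 for its main transcript) and TAF15 (−0.13, same setting), all against RiboMinus; the cause was not tested. The difference in the nuclear to cytoplasmic log2 ratio was 1.72 between the NAD-Capture groups with class means of log2(FPKM + 1), against 1.23, and 1.05 to 1.43 when a replicate was left out. Against RiboMinus it was 1.25 with class means and 1.87 with TUG1 as cytoplasmic, against 1.54, and 1.43 to 1.73 when a replicate was left out. The NEAT1 short share differed by 10.2 to 13.9 points when a replicate was left out, an alternative chosen after seeing the data. Depth limits TUG1 and OIP5-AS1 most in NAD-Capture, together with short NEAT1 in the WT libraries (16 to 17 fragments each).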

Other observations

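By FPKM summed per gene, replicate 1 labelled DXO-KO stood apart in the pair of nuclear RNAs: MALAT1 was 6.98 times NEAT1 there and 14.5 to 21.1 times in the other 7 libraries. This depends on the FPKM assigned to short NEAT1. Against long NEAT1 alone, at 44.8 FPKM there, MALAT1 lay between its RiboMinus ratios and those of the other NAD-Capture libraries. In the same library NEAT1 was at 144 FPKM, above every WT library, and MALAT1 at 1005 FPKM, close to WT. TUG1's transcript NR_110492 was above 0 among NAD-Capture libraries in this one alone, at 18.4 FPKM and 102 fragments.

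MEG3 ran against NEAT1 between the NAD-Capture groups. It was at 11.8, 28.1 and 23.1 FPKM in WT and at 2.15, 0.779 and 1.31 FPKM in DXO-KO-labelled replicates 1 to 3, without overlap (limma log2 fold change −3.15, SE 0.548, adjusted p 0.0792, not past the threshold). At 1 kb, 1 fragment was worth 1.24, 7.18 and 12.5 FPKM in those DXO-KO-labelled replicates, and 4.0 to 6.0 FPKM in WT NAD-Capture. The low MEG3 values are thus near or below the worth of 1 such fragment. H19 was at 57.7 ± 21.2 FPKM in WT and 25.7 ± 5.77 FPKM in the libraries labelled DXO-KO (SD, n = 3 each), also without overlap (−1.10, SE 0.357, limma adjusted p 0.201). Of all genes tested, 11.5% were lower without overlap. Both MEG3 and H19 were chosen for having passed against RiboMinus, which shares the WT NAD-Capture libraries with this comparison.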
